A study of Mus musculus with 6 samples.

Results

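The D cyclins, the kinases Cdk4 and Cdk6 and the retinoblastoma family form the switch that commits a cell to DNA replication, and their RNA levels were described in mouse medulloblastoma, a tumour of the cerebellum. The members were the 8 genes Ccnd1, Ccnd2, Ccnd3, Cdk4, Cdk6, Rb1, Rbl1 and Rbl2, taken by gene symbol from 52550 genes, with 67 of 131100 transcripts between them. RNA-seq had been run on 6 tumours, 3 with wild type EED and 3 with mutant EED. The Eed protein belongs to the Polycomb complex PRC2, where it helps to spread methylation of histone H3 over silenced genes. The sources used here do not give the mutant allele, the promoter that drives any transgene or Cre, what started the tumours, or the strain and age of the mice, and they do not say whether each tumour came from its own animal. The p-values therefore measure only the spread between these samples, and in pieces of tumour fewer cells of a type and less RNA per cell cannot be told apart.

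As background, D-type cyclins are made in response to growth signals and bind Cdk4 or Cdk6, and the active kinases phosphorylate Rb1, Rbl1 (p107) and Rbl2 (p130). These 3 pocket proteins hold E2F transcription factors in check until they are phosphorylated, after which E2F target genes of DNA synthesis are transcribed. In cerebellar granule cell progenitors, the cells from which Sonic hedgehog medulloblastoma arises, hedgehog signalling drives division with Ccnd1 and Ccnd2 as prominent D cyclins.

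The libraries were nearly equal in depth, from 26186236 to 26425111 estimated counts, and 28424 to 28635 genes were above 0. Levels are CPM, the gene's counts scaled to a common library size by TMM normalisation, unless a sentence names TPM, which also divides by transcript length. Eed itself was at 30.1 to 43.8 CPM in wild type against 30.7 to 36.8 CPM in the mutants, so the ranges overlap, and with the allele unknown its RNA level does not check the labels. Of 6 granule progenitor markers none was at 0. Atoh1 was at 75.3 to 127 CPM in wild type against 137 to 172 CPM in the mutants, and Mfap4 was also higher in every mutant, while Barhl1, Zic1, Zic2 and Pax6 had log2 fold changes of -0.09 to -0.33 and overlapped. Wild-type replicate 2 stood apart in markers of other cells. The summed level of 12 oligodendrocyte markers was 2053 CPM there, against 1080 and 1430 CPM in the other wild-type tumours. In the mutants it was 864 to 935 CPM. None of the 12 was at 0, and 9 were lower in every mutant than in any wild-type tumour, beside 11.9% of all genes tested. Olig1 and Olig2 went the other way, with log2 fold changes of 0.12 and 0.61 and overlapping groups. The 8 markers of differentiated granule neurons were also highest in wild-type replicate 2, at 2092 CPM, against 1037 to 1571 CPM in the remaining tumours. Each of the 8 had a log2 fold change below 0 (median -0.80), with overlapping sums. Gabra6, Grin2c and Snap25 were lower in every mutant than in any wild-type tumour, beside 11.9% of all genes tested. The sums of 8 endothelial markers did not overlap (119 to 158 CPM in wild type against 171 to 181 CPM in the mutants). Nor did those of 8 pericyte and smooth muscle markers (197 to 233 against 247 to 287 CPM). Rgs5, at 108 to 138 against 158 to 180 CPM, held most of that sum. Of these 8 markers, 6 had a log2 fold change above 0, and Kcnj8 was lower in every mutant. Sums of 7 Purkinje cell markers (630.3 to 1047 against 428 to 600.2 CPM, 7 of 7 below 0) did not overlap. Those of 7 meningeal fibroblast markers did not either (597 to 636 against 491 to 573 CPM). Pdgfra, also on the oligodendrocyte list, was their largest part, at 309 to 373 against 243 to 357 CPM. Among these 7 markers 6 were below 0, while Fn1 was higher in every mutant. All 9 microglia and macrophage markers had a log2 fold change below 0, with overlapping sums of 228 to 333 against 205 to 254 CPM. The part of these cells in the differences below was not tested.

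Across the 8 genes, the mutants had more Ccnd1, Ccnd3 and Rbl1 RNA, a slightly higher Cdk4 level, and Rb1 and Rbl2 levels close to those of wild type. For Ccnd2, 2 of 3 mutants lay below the whole wild-type range. Groups did not overlap for Ccnd1, Ccnd3, Cdk4 and Rbl1, 4 of 8 members, all higher in the mutants, where 13.1% of the 19145 genes tested were higher without overlap and 11.9% lower. None of the 8 passed edgeR's quasi-likelihood test adjusted over all genes, in which 0% of genes passed in either direction and 0.0808 was the smallest adjusted p. At an unadjusted p under 0.05 there were 3 of 8 members, all higher, beside 9.29% of all genes higher and 8.78% lower (18.1% together). DESeq2 on the same counts called these 3, Ccnd1, Ccnd3 and Rbl1, higher and none lower, beside 3.00% of 17494 genes called higher and 2.32% called lower. Both tools read the same libraries, so the second is not separate evidence, and without mutant replicate 1 or mutant replicate 3 DESeq2 called none of the 8.

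**Figure D1:**
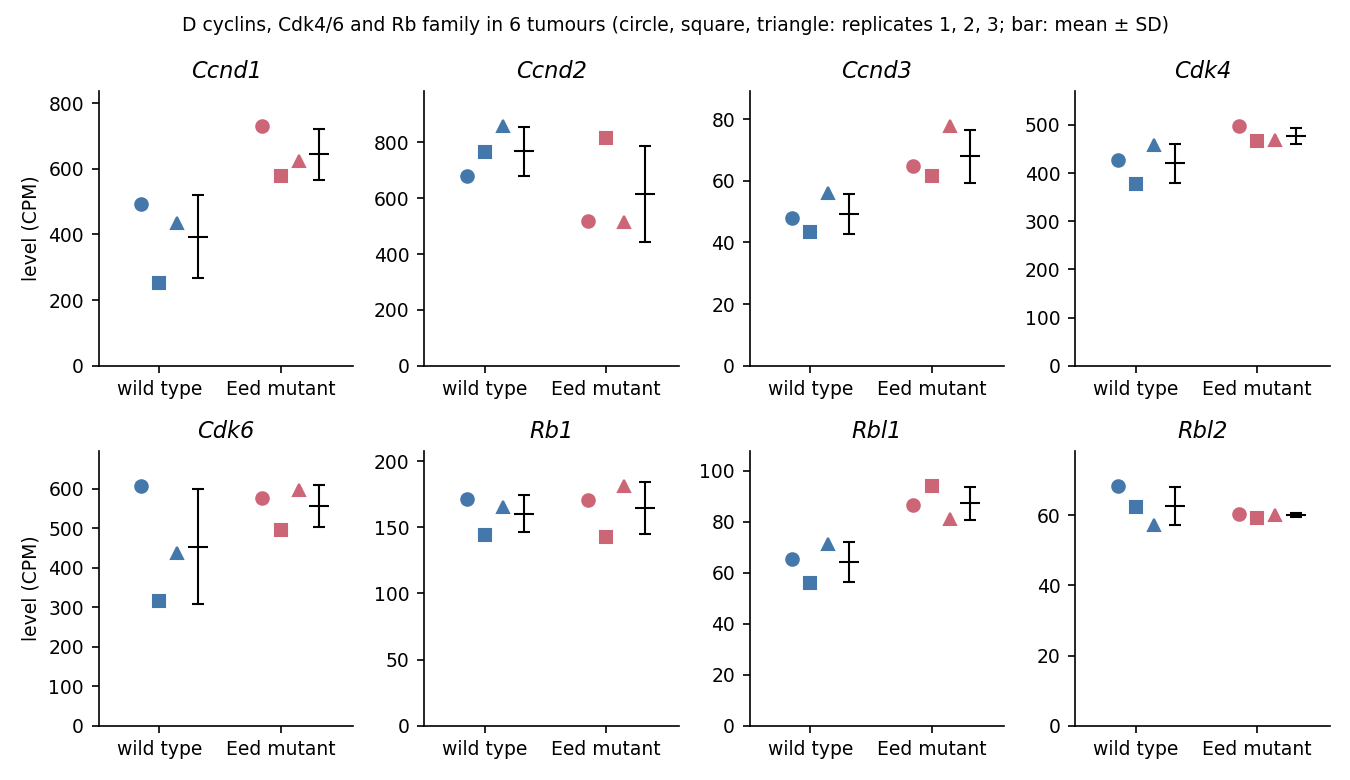
Level of each member (CPM, y axis) in the 3 wild-type and 3 Eed mutant tumours, with circles, squares and triangles for replicates 1, 2 and 3 and bars for the mean ± SD. Every mutant lies above every wild-type tumour for Ccnd1, Ccnd3, Cdk4 and Rbl1, and the mutants span 515 to 815 CPM for Ccnd2.

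Ccnd1, cyclin D1 (ENSMUSG00000070348.5, GRCm38 chromosome 7, 144929931 to 144939925, minus strand), showed the largest difference of the 8 in edgeR. Its level was 493 CPM in wild-type replicate 1, 251 CPM in replicate 2 and 435 CPM in replicate 3, and 729, 579 and 623 CPM in the mutants in the same order, which is kept below. Wild-type replicate 2 was the lowest of the 6, and the nearest tumours of the groups, wild-type replicate 1 and mutant replicate 2, were 493 and 579 CPM. The means were 393 ± 126 and 644 ± 77.2 CPM (SD, n = 3), a log2 fold change of 0.71 (SE 0.237; edgeR adjusted p = 0.205, DESeq2 adjusted p = 0.0364). Without wild-type replicate 2, the tumour with the most oligodendrocyte RNA, the log2 fold change was 0.47 (edgeR adjusted p = 0.227), and DESeq2 still called the gene (adjusted p = 0.00931). DESeq2 no longer called it without mutant replicate 1, 2 or 3 (adjusted p = 0.419, 0.0739 and 0.185).

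Ccnd2, cyclin D2 (ENSMUSG00000000184.12, chromosome 6, 127125162 to 127152193, minus strand), was lower in some mutants. It measured 679, 766 and 857 CPM in wild type against 519, 815 and 515 CPM in the mutants. Mutant replicates 1 and 3 lay below every wild-type tumour, while mutant replicate 2 lay within the wild-type range. The means were 767 ± 89.3 and 617 ± 172 CPM (SD, n = 3; log2 fold change -0.32, SE 0.193, edgeR adjusted p = 0.417, DESeq2 adjusted p = 0.403), so the difference was within the spread. Without mutant replicate 2 it was -0.57, with an adjusted p of 0.158 in edgeR and 0.00181 in DESeq2. Without mutant replicate 1 or 3 it was -0.21 and -0.20 (edgeR adjusted p = 0.75 and 0.682, DESeq2 adjusted p = 0.963 and 0.825).

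Ccnd3, cyclin D3 (ENSMUSG00000034165.16, chromosome 17, 47505051 to 47599691, plus strand), had the lowest TPM of the D cyclins in every tumour, 35.9 to 46.7 in wild type and 47.9 to 61.9 in the mutants. It measured 48.0, 43.4 and 56.2 CPM in wild type against 64.7, 61.5 and 77.6 CPM in the mutants, with no overlap and with mutant replicate 3 the highest. The means were 49.2 ± 6.47 and 67.9 ± 8.53 CPM (SD, n = 3; log2 fold change 0.47, SE 0.125, edgeR adjusted p = 0.161, DESeq2 adjusted p = 0.0336). Leaving out wild-type replicate 1 or 2 ended the DESeq2 call (adjusted p = 0.11 and 0.133), as did leaving out mutant replicate 1 or 3 (adjusted p = 0.2 and 0.287). Of 10 skeletal muscle markers, 9 were higher in every mutant than in any wild-type tumour (13.1% of all genes were) and none was at 0 in all libraries. The exception, Myod1, held most of the wild-type sum, at 50.3 to 81.5 CPM in wild type against 48.0 to 71.9 CPM in the mutants. The summed level was 56.2 to 105 CPM in wild type against 133 to 398 CPM in the mutants, highest in mutant replicate 3. Their part in the Ccnd3 difference was not tested.

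The Ccnd3 gene has an upstream and a downstream start region, far apart, and nearly all of its counts came from the downstream one. Ccnd3-205, a 5-exon coding transcript that starts at 47593470, held 89.6% to 94.9% of the gene's estimated counts in the 6 libraries. Transcripts that start in the upstream region, from 47505051 on, were compared with those of both start regions together, leaving out transcripts that start elsewhere. They took 0.958%, 0.377% and 0.433% of these counts in wild type against 4.43%, 0.128% and 0.791% in the mutants. The highest of these shares came from Ccnd3-201 with 74.5 counts in mutant replicate 1. On TPM their share was 0.4% to 5.27%, with overlapping groups on both scales. The 250 bases before each start are shown because the transcript counts separate them (RefSeq, GRCm38.p6, plus strand, read 5′ to 3′, chr17:47504801-47505050 and chr17:47593217-47593466). No E2F word or E-box, as spelled out below, lay in either window, so neither has capitals.
Ccnd3 upstream start: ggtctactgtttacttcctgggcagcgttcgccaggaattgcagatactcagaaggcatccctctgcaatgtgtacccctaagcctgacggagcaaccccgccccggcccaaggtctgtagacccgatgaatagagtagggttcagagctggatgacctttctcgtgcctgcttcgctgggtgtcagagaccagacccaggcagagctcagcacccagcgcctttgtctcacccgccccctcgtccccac
Ccnd3 downstream start: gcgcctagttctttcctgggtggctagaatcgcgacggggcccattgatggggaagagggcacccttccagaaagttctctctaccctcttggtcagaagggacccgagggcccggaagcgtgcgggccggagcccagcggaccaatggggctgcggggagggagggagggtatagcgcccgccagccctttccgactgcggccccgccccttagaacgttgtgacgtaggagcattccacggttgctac

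On TPM summed over transcripts, the balance between Ccnd1 and Ccnd2 differed between the groups more than the summed D cyclin level did. Summed over the 3 D cyclins, TPM was 479, 418 and 537 in wild type against 519.6, 554 and 506 in the mutants (means 478 ± 59.9 and 526 ± 24.7, SD, n = 3; exact permutation p = 0.3, two-sided as are those below). These ranges overlap. The Ccnd1 share of that sum was 47.9%, 28.4% and 37.5% in wild type against 61.4%, 47.9% and 56.1% in the mutants (means 37.9% ± 9.80 and 55.1% ± 6.77; exact permutation p = 0.2). The Ccnd2 share was 44.0%, 63.1% and 53.8% in wild type against 29.1%, 43.4% and 31.7% in the mutants (means 53.6% ± 9.55 and 34.7% ± 7.64; exact permutation p = 0.1, the smallest that 3 against 3 allows). Wild-type replicate 1 and mutant replicate 2 were nearly alike in both shares. On shares of estimated counts the Ccnd2 groups overlapped. On principal transcripts alone they did too (41.4% to 58.4% against 27.1% to 41.9%, exact permutation p = 0.2). Short transcripts with few counts enter the TPM sum. Ccnd2-203, of 127 bases, had 2, 4 and 8 counts in wild type against 2, 1 and 3 in the mutants. It added 8.82, 18.1 and 35.2 TPM against 8.50, 4.23 and 13.1 TPM. The log2 ratio of Ccnd1 to Ccnd2 TPM was 0.13, -1.15 and -0.52 in wild type against 1.08, 0.14 and 0.82 in the mutants, a difference of 1.20 (exact permutation p = 0.1), so that Ccnd1 exceeded Ccnd2 in 1 of 3 wild-type tumours and in 3 of 3 mutants. With TMM-scaled CPM, which is not per length, Ccnd1 exceeded Ccnd2 in 2 libraries, mutant replicates 1 and 3. The difference on that scale was 1.11, and with principal transcripts alone it was 1.10, in both cases with overlapping groups (exact permutation p = 0.2 for each). The Ccnd3 share was 8.10% to 8.70% in wild type against 8.65% to 12.2% in the mutants.

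**Figure D2:**
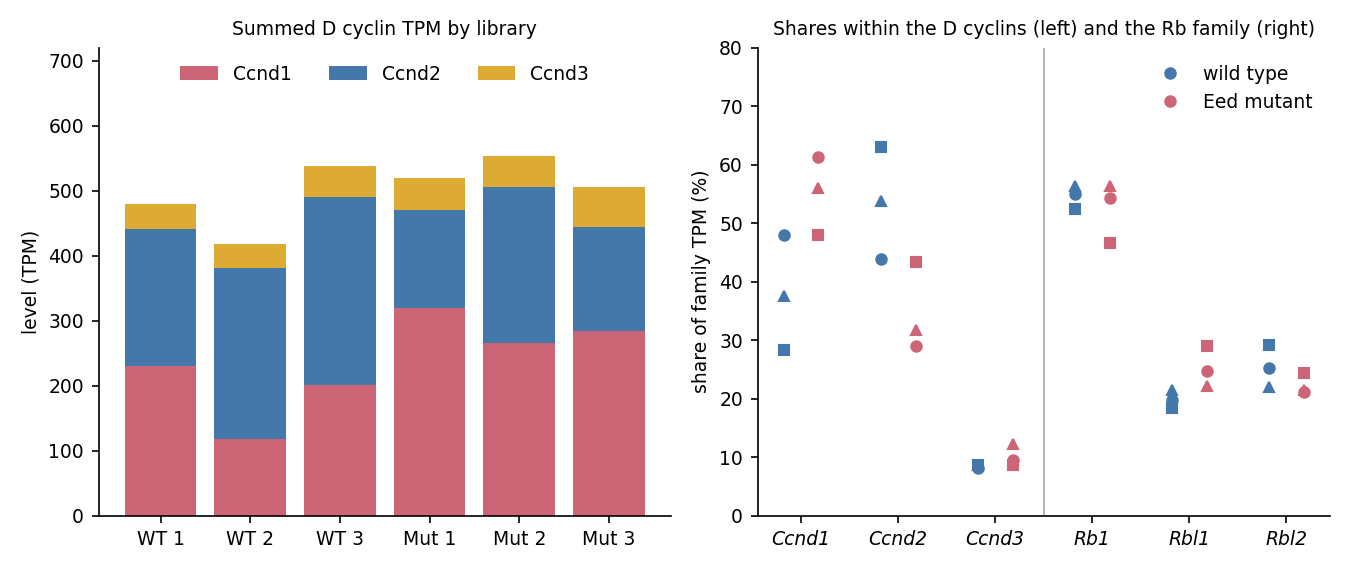
Left, stacked TPM of Ccnd1, Ccnd2 and Ccnd3 in each library (bars, y axis in TPM), and right, the share of each gene in the summed TPM of the D cyclins or of the Rb family (percent), 1 point per library. The summed D cyclin level runs from 418 to 554 TPM. The Ccnd2 share is 29.1% to 43.4% in the mutants against 44.0% to 63.1% in wild type. The Rbl1 share is 22.2% to 29.0% in the mutants against 18.4% to 21.6% in wild type.

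Cdk4 (ENSMUSG00000006728.12, chromosome 10, 127063534 to 127067920, plus strand), a catalytic partner of D cyclins, varied little. It measured 426, 377 and 458 CPM in wild type against 497, 467 and 469.6 CPM in the mutants, which did not overlap although the nearest tumours were 458 and 467 CPM. The means were 420.3 ± 40.7 and 478 ± 16.7 CPM (SD, n = 3; log2 fold change 0.18, SE 0.0867, edgeR adjusted p = 0.31, DESeq2 adjusted p = 0.323), so it did not pass. Cdk6 (ENSMUSG00000040274.11, chromosome 5, 3341485 to 3531008, plus strand), the other partner, measured 605, 316 and 438 CPM in wild type against 575, 495 and 595 CPM in the mutants. The groups overlap, wild-type replicate 1 is the highest tumour of all and wild-type replicate 2 the lowest, as it was for Ccnd1. The Cdk6 log2 fold change of 0.29 (SE 0.219, edgeR adjusted p = 0.505) became 0.09 without wild-type replicate 2 and 0.56 without wild-type replicate 1, where DESeq2 called it (adjusted p = 0.0307).

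The 250 bases before the Cdk4 start are shown because Mycn, a partner of Max that binds the E-box, is on the list of inputs given below (RefSeq, GRCm38.p6, plus strand, chr10:127063285-127063534). The capitals mark the E-box CACGTG, which reads the same on both strands and is present 4 times. Of 32851 promoter windows of this length, 6.02% hold at least 1 such word and 0.0213% hold 4 or more. The word was chosen after the sequence was seen. Mycn was at 307, 242 and 332 CPM in wild type against 251, 271 and 244 CPM in the mutants (log2 fold change -0.20, edgeR adjusted p = 0.406), so neither Cdk4 nor Mycn passed the test.
Cdk4: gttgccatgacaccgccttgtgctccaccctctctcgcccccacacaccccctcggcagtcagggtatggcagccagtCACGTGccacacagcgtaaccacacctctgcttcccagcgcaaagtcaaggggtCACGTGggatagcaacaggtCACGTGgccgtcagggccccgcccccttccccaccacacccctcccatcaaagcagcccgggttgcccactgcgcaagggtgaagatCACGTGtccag

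For Cdk4 the principal transcript held less of the gene's counts than for any other member. The 8-exon coding transcript Cdk4-201 held 27.7% to 34.8% of the gene's estimated counts, whereas the principal coding transcripts of Ccnd1, Ccnd2, Cdk6, Rb1 and Rbl1 held at least 92.9% of theirs in every library and Rbl2-201 held 82.8% to 92.8%. Short transcripts raise the TPM of a gene, so the Cdk4 sum of 769.7 to 933 TPM should be read beside Cdk4-201 alone, at 93.5 to 134 TPM. On that basis the Cdk6 share of the pair was 33.4% to 48.3% (principal transcripts Cdk6-202 and Cdk4-201), against 6.88% to 10.8% on summed TPM. On neither scale did the groups separate (exact permutation p = 0.7 and 0.6).

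Single Cdk4 transcripts differed in direction, and none passed edgeR adjusted over all transcripts. Cdk4-205, a coding transcript of 7 exons, had 1751, 1153 and 1666 estimated counts in wild type against 2280, 1911 and 1957 in the mutants (log2 fold change 0.45, SE 0.171). Cdk4-206, annotated as a retained intron and ending 16 bases into intron 5 of Cdk4-201, had 232, 312 and 235 counts in wild type against 173, 203 and 143 in the mutants (log2 fold change -0.57, SE 0.204). Their groups did not overlap, in opposite directions. Cdk4-204, which starts within intron 1 of Cdk4-201 and covers 76.5% of that intron, took 4.71% to 5.65% of Cdk4 TPM in wild type against 3.46% to 4.11% in the mutants, again without overlap (exact permutation p = 0.1). Cdk4-203, which retains intron 2, took 2.61% to 3.14% and 2.00% to 2.52%, and the share of Cdk4-206 was 4.35% to 6.41% and 2.44% to 3.61% (exact permutation p = 0.1 for each). Cdk4-207, with the 688 bases of intron 5 retained, and Cdk4-209, a short transcript that starts in intron 6, were higher without overlap, with log2 fold changes of 0.23 and 0.22. Transcripts so alike share most of their reads, and the files hold no measure of how surely each read was assigned.

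**Figure D3:**
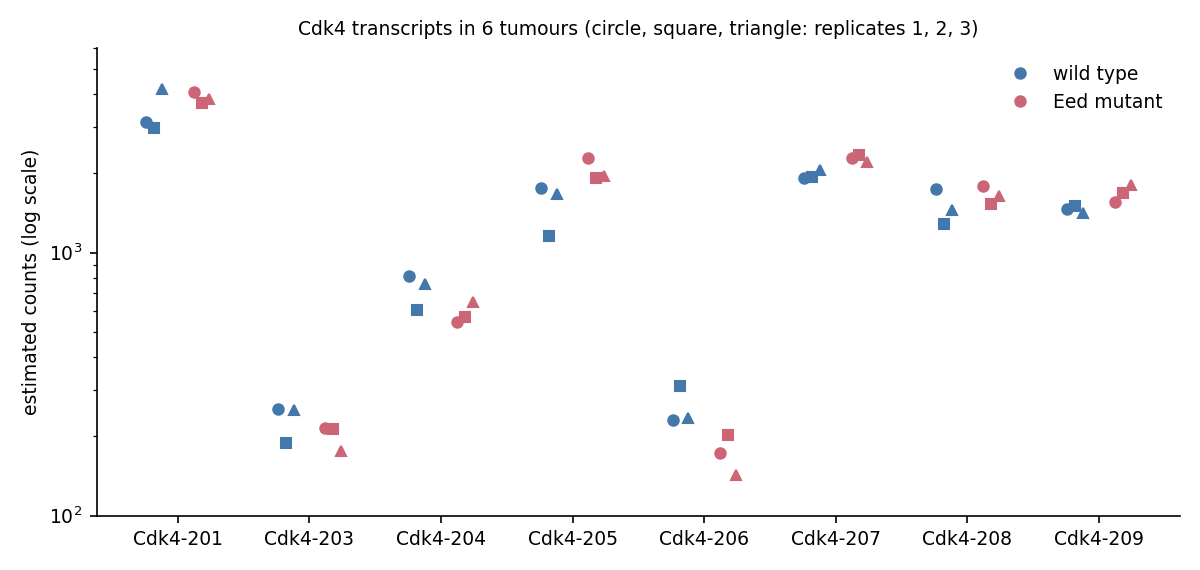
Estimated counts (log axis) of the 8 Cdk4 transcripts with a mean of at least 50 counts, 1 point per library, with wild type to the left and Eed mutants to the right. The mutants lie above wild type for Cdk4-205, Cdk4-207 and Cdk4-209 and below it for Cdk4-206, whose counts are 232 to 312 in wild type against 143 to 203 in the mutants.

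Of the 67 member transcripts, 9 had no counts in any library and 30 had enough to test. None passed edgeR adjusted over the 50890 transcripts tested, in which 0% passed in either direction. At an unadjusted p under 0.05, 9 of the 30 were higher and 2 lower, beside 5.10% and 4.71% of all transcripts (9.81% together). Groups did not overlap for 10 higher and 2 lower ones, beside 9.12% and 8.53% of all transcripts. DESeq2 called 1 of them, Rbl1-201, higher (adjusted p = 0.0165), beside 1.54% of transcripts called higher and 0.946% lower. The 9 higher at that unadjusted p were Ccnd1-201, Ccnd1-203, Ccnd3-205, Ccnd3-206, Cdk4-205, Cdk4-207, Cdk4-209, Cdk6-205 and Rbl1-201. Isoforms of the same gene share reads, so these counts largely repeat gene differences and are not of separate members. The full-length Ccnd2-201 had 17580, 19546 and 22101 counts in wild type against 13357, 20777 and 13412 in the mutants, whereas Ccnd2-208, a single exon that covers the 1702 bases of intron 1 and part of intron 2, had 119, 120.4 and 114 against 58.5, 95.1 and 54.6 (log2 fold changes -0.30 and -0.74, SE 0.194 and 0.258, edgeR adjusted p = 0.669 and 0.46). The ranges of Ccnd2-208 did not overlap. Ccnd2-204, a short coding transcript that ends 364 bases into intron 2, had 244, 512 and 264 counts against 68.0, 278 and 111 (log2 fold change -1.14, SE 0.564, edgeR adjusted p = 0.571), with overlap. Its share of Ccnd2 TPM was 6.68% to 13.9% in wild type against 3.22% to 8.27% in the mutants, while that of Ccnd2-201 was 75.9% to 84.9% and 83.9% to 87.8% (exact permutation p = 0.2 for each).

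Rb1, the retinoblastoma protein and highest of the 3 pocket proteins in TPM (ENSMUSG00000022105.6, chromosome 14, 73183673 to 73325822, minus strand), showed no difference beyond the spread between tumours. It measured 171, 145 and 166 CPM in wild type against 171, 143 and 181 CPM in the mutants (means 160.5 ± 14.1 and 165 ± 19.7 CPM, SD, n = 3; log2 fold change 0.04, SE 0.106, edgeR adjusted p = 0.877). Its sign turned on log2(TPM + 1) and when wild-type replicate 2 or mutant replicate 3 was left out. Rbl2 (ENSMUSG00000031666.15, chromosome 8, 91070057 to 91123844, plus strand), the pocket protein of resting cells, measured 68.2, 62.4 and 57.2 CPM in wild type against 60.4, 59.3 and 60.2 CPM in the mutants. The 3 mutants lie within the wild-type range, and the log2 fold change was -0.06 (SE 0.0771, edgeR adjusted p = 0.695), with its sign turned without wild-type replicate 1 (0.003).

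Rbl1 (ENSMUSG00000027641.13, chromosome 2, 157145893 to 157204534, minus strand), the pocket protein of dividing cells, had the largest difference of the Rb family. It measured 65.5, 56.0 and 71.2 CPM in wild type against 86.7, 93.8 and 81.0 CPM in the mutants, with no overlap. The means were 64.2 ± 7.69 and 87.2 ± 6.45 CPM (SD, n = 3), a log2 fold change of 0.44 (SE 0.103), the smallest p of the 8 in edgeR (unadjusted p = 0.00344, adjusted p = 0.149) and in DESeq2 (adjusted p = 0.0164). DESeq2 did not call it without wild-type replicate 1 (adjusted p = 0.0508) or without any 1 of the mutants (0.195, 0.125 and 0.0626 for replicates 1 to 3). Its share of the Rb family's summed TPM was 19.7%, 18.4% and 21.6% in wild type against 24.7%, 29.0% and 22.2% in the mutants (means 19.9% ± 1.57 and 25.3% ± 3.48; exact permutation p = 0.1), also without overlap on shares of counts and on principal transcripts. The Rb1 share was 52.4% to 56.4% in wild type against 46.6% to 56.3% in the mutants, and the Rbl2 share 22.1% to 29.2% against 21.1% to 24.4%, both with overlap. On principal transcripts the Rb1 share did not overlap, at 60.2% to 60.7% against 52.3% to 60.0% (exact permutation p = 0.1). The summed TPM of the family was 129 to 148 in wild type against 137 to 149.9 in the mutants.

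The 250 bases before the Rbl1 start are shown because Rbl1 was the member with the smallest p and RNA of E2F targets was set beside it (RefSeq, GRCm38.p6, minus strand, read 5′ to 3′ toward the start, chr2:157204535-157204784). The capitals mark an E2F word. The words searched on both strands were TTTCCCGC, TTTGGCGC, TTTCGCGC and TTTGCCGC, and 1.86% of the 32851 promoter windows hold at least 1. The promoter table matched Ccnd3, Cdk4, Cdk6, Rbl1 and Rbl2, 5 of the 8 members, and among these an E2F word lay before Rbl1 alone. A match is a description of the letters and not a measured site.
Rbl1: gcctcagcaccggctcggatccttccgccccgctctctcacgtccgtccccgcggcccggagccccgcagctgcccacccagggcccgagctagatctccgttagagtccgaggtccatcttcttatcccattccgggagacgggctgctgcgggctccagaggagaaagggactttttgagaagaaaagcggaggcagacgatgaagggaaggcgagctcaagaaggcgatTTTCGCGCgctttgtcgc

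**Figure D4:**
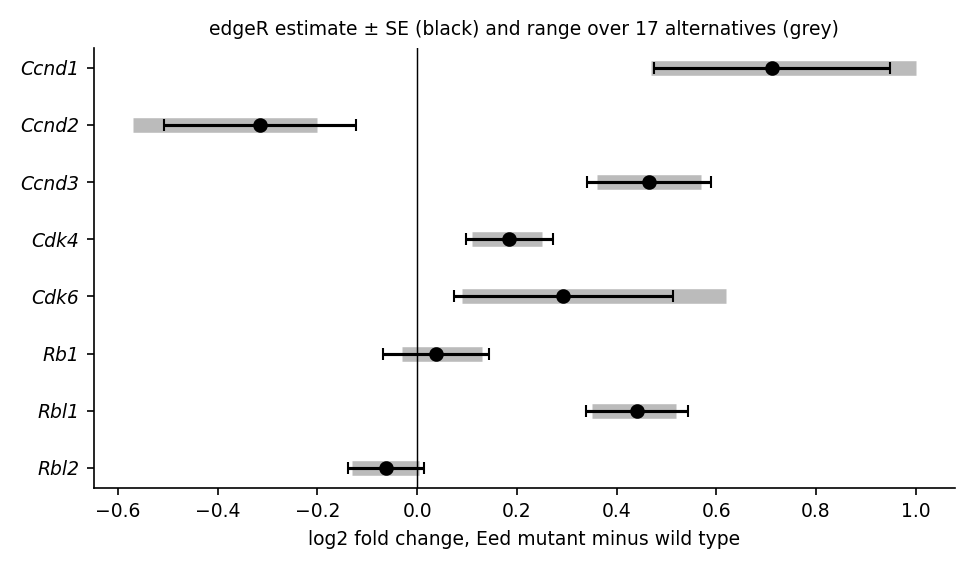
log2 fold change, Eed mutant minus wild type (x axis), of each member in edgeR, with the SE as black bars and the range over 17 alternative fits in grey. Ccnd1, Ccnd3, Cdk4, Cdk6 and Rbl1 lie above 0 and Ccnd2 below 0 over their whole ranges, while Rb1 (-0.03 to 0.13) and Rbl2 (-0.13 to 0.003) cross 0.

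Ordered by TPM summed over a gene's transcripts, wild-type tumours had Cdk4 highest (mean 830.2 ± 52.5), then Ccnd2 (254 ± 39.9), Ccnd1 (183 ± 57.9), Cdk6 (79.6 ± 23.7), Rb1 (76.2 ± 7.72), Ccnd3 (40.5 ± 5.63), Rbl2 (35.4 ± 3.53) and Rbl1 (27.8 ± 3.62; SD, n = 3). In that order Ccnd2 and Ccnd1, Cdk6 and Rb1, and Ccnd3 and Rbl2 overlapped between neighbours. In the mutants the order was Cdk4 (918 ± 19.3), Ccnd1 (289 ± 27.2), Ccnd2 (184 ± 49.2), Cdk6 (95.7 ± 8.04), Rb1 (75.6 ± 10.8), Ccnd3 (53.2 ± 7.63), Rbl1 (36.2 ± 3.22) and Rbl2 (32.1 ± 1.32). Ccnd1 stood above Ccnd2 there, without overlap, and Rbl1 above Rbl2, with overlapping ranges, the sole overlap of neighbours in the mutants. The place of Cdk4 rests on its short transcripts: by principal transcripts in wild type, Cdk4-201 (109 ± 21.8 TPM) stood below Ccnd2-201 (202 ± 23.8) and Ccnd1-201 (173 ± 56.4), and Rbl1-201 (23.5 ± 2.54) above Rbl2-201 (19.7 ± 2.65; SD, n = 3).

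The deposited file names carry a code, P38, P19 or P18, which the labels do not explain and which was not used as a group. Among the 3 libraries with code P19, Ccnd1 was at 251 CPM in wild-type replicate 2 and at 729 and 579 CPM in mutant replicates 1 and 2. In the pair with code P18 it was at 435 CPM in wild-type replicate 3 and 623 CPM in mutant replicate 3. Within the same codes Rbl1 went from 56.0 to 86.7 and 93.8 CPM and from 71.2 to 81.0 CPM, and Ccnd3 from 43.4 to 64.7 and 61.5 CPM and from 56.2 to 77.6 CPM. Ccnd2 went from 766 to 519 and 815 CPM and from 857 to 515 CPM. Wild-type replicate 1, alone with its code, does not inform the group difference in a fit with the code as a term, which gave log2 fold changes of 1.00 for Ccnd1, 0.51 for Ccnd3, 0.47 for Rbl1, 0.62 for Cdk6 and -0.43 for Ccnd2, with edgeR adjusted p from 0.195 to 0.423 for these 5.

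Genes that act with or below the members were set beside them as lists, each described by its counts, with 48.6% of all genes tested above 0 and a median log2 fold change of -0.01. In no list did a gene pass edgeR adjusted over all genes. Of 21 E2F targets of the G1/S transition, such as helicase subunits, nucleotide enzymes and licensing factors, 21 had a log2 fold change above 0 (0.18 to 0.37, median 0.23). An unadjusted p under 0.05 was reached by 10 of them in edgeR, and DESeq2 called 0, where over all genes 9.29% were higher at that p and DESeq2 called 3.00% higher, which is the background for the lists that follow. Their summed level was 2474, 2093 and 2696 CPM in wild type against 2889, 2962 and 2730 CPM in the mutants, which do not overlap. The number under an unadjusted p of 0.05 depended on single libraries: it was 5 without wild-type replicate 2, 2 without mutant replicate 2, 6 without mutant replicate 1 and 18 without wild-type replicate 3. Mcm4, a subunit of the replicative helicase, was at 134, 112 and 137 CPM in wild type against 157, 163 and 152 CPM in the mutants. Rrm2, of ribonucleotide reductase, was at 125, 97.4 and 131 CPM and 151, 166 and 140.4 CPM. None of the 8 proliferation markers was at 0, and 4 were higher in every mutant than in any wild-type tumour, beside 13.1% of all genes tested. The 8 markers summed to 1852 to 2408 CPM in wild type against 2293 to 2773 CPM in the mutants, with overlap. Their part in the E2F target and Rbl1 differences was not tested.

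Of 9 genes of the next cyclin-kinase steps and the Cdk-activating kinase, 9 were above 0 (median 0.22), 5 of them with an unadjusted p under 0.05, and DESeq2 called Ccne1 and Mnat1 (9.29% and 3.00% of all genes). The 5 became 3 without mutant replicate 1 or mutant replicate 2. Ccne1, cyclin E1, was at 11.1, 10.1 and 12.6 CPM in wild type against 16.5, 17.4 and 14.0 CPM in the mutants (log2 fold change 0.50, SE 0.133, edgeR adjusted p = 0.159, DESeq2 adjusted p = 0.0346). Mnat1, which assembles the Cdk-activating kinase, was at 14.6 to 15.4 CPM and 20.2 to 21.7 CPM (log2 fold change 0.47, edgeR adjusted p = 0.13, DESeq2 adjusted p = 0.00274). Of 10 E2F and DP genes, 8 were above 0 (median 0.14). The repressor E2Fs E2f7 and E2f8 were at 37.1 to 52.5 and 41.9 to 49.3 CPM in wild type against 55.5 to 64.7 and 52.8 to 68.2 CPM in the mutants. E2f1, an activator, was at 93.1 to 102 CPM and 85.0 to 89.6 CPM (log2 fold change -0.15, edgeR adjusted p = 0.269). The MuvB core pairs with Rbl1 or Rbl2 in the DREAM complex. Of 6 genes, those of the MuvB core and B-Myb (Mybl2), 4 were above 0 (median 0.08, and 0.03 without wild-type replicate 2). Mybl2 had a log2 fold change of 0.27 and Lin54 of 0.24, with edgeR adjusted p of 0.182 and 0.23.

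Of 7 Cdk inhibitors, 5 lay above 0 (median 0.25), and DESeq2 called Cdkn1a and Cdkn1c higher. The median was 0.46 without wild-type replicate 1 and 0.16 without wild-type replicate 2. Cdkn1c, p57, was at 9.20 to 15.5 CPM in wild type against 31.4 to 73.2 CPM in the mutants, and Cdkn1a, p21, at 21.3 to 30.7 and 36.0 to 47.2 CPM. Cdkn1b, p27, which also holds cyclin-kinase complexes inactive, was at 305 to 346 CPM and 262 to 314 CPM. Of 9 hedgehog genes and Mycn inputs 6 were above 0 (median 0.35, and 0.22 without wild-type replicate 2). Gli3, a hedgehog transcription factor, and Hhip, a hedgehog inhibitor and target, had log2 fold changes of 0.94 and 1.11 (edgeR adjusted p = 0.151 and 0.154, DESeq2 adjusted p = 0.00243 and 0.00155). Gli1, the hedgehog target and activator, was at 216, 153 and 194 CPM in wild type against 254, 219.8 and 241 CPM in the mutants, and Ptch1, the receptor and a target, at 983, 447 and 736 and 1247, 815 and 1096 CPM. Like Ccnd1, both were lowest in wild-type replicate 2. Of 8 genes for D cyclin turnover and Cdk4 folding, 4 were above 0 (median -0.003), and Fbxo31 and Ddb1, with the smallest p, had log2 fold changes of -0.12 and 0.11 (edgeR adjusted p = 0.466 and 0.506).

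**Figure D5:**
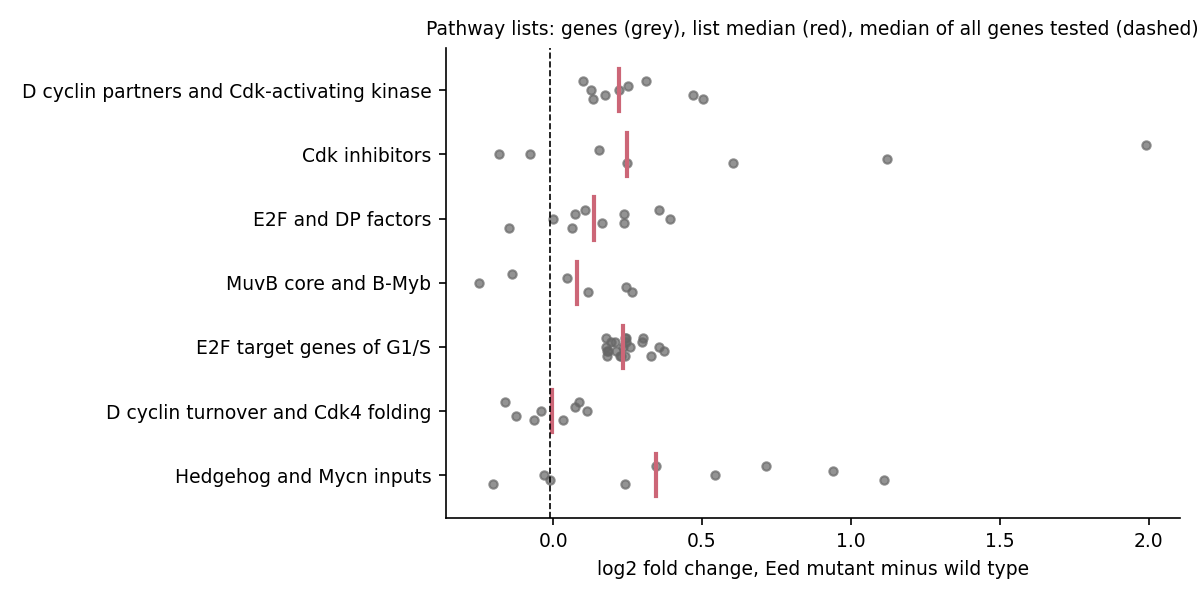
log2 fold change, Eed mutant minus wild type (x axis), of each gene (grey points) of the 7 lists, with the list median in red and the median of all genes tested dashed. The 21 E2F targets lie between 0.18 and 0.37, and the Cdk inhibitors spread from -0.18 to 1.99.

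The gene most alike in pattern to each member was taken as the one with the highest Pearson's r of log2 CPM over the 6 libraries, among 10685 genes with a mean of at least 10 CPM. It was Ankrd28 for Ccnd1 (r = 0.998), Zfp970 for Ccnd2 (0.987), H19 for Ccnd3 (0.996), Cnbp for Cdk4 (0.998), Abcd3 for Cdk6 (0.997), Trit1 for Rb1 (0.977), Tamm41 for Rbl1 (0.999) and Tcn2 for Rbl2 (0.985). With 6 points high values are common: 376 genes reached an r of at least 0.95 with Ccnd1, 426 with Cdk4 and 279 with Rbl1, against 14 with Rb1 and 17 with Ccnd2. H19, at 9.14, 4.96 and 29.2 CPM in wild type against 94.3, 73.3 and 264 CPM in the mutants, shares with Ccnd3 the order of the 6 tumours and has a log2 fold change of 3.32 beside 0.47. The skeletal muscle markers given above were also highest in mutant replicate 3.

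All 8 loci overlap other annotated genes, in each case with at least 1 on the opposite strand, among them Tspan31 over 641 bases at the 3′ end of Cdk4, Aktip at Rbl2, and Lpar6 inside Rb1. The sources used here do not give the strand setting, so reads over such stretches cannot be told apart by strand.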

How the data were processed

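Per the file headers, the authors deposited estimated counts and TPM (abundance per effective length, scaled to a fixed total) for 131100 transcripts in 6 libraries, 1 file per tumour. Kallisto 0.43.1 and the builds GRCm38 and mm10 are listed in the submitters' processing notes. Loci come from GENCODE M21 on GRCm38, whose 8 member identifiers match those of the files.

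The estimated counts were summed per gene, rounded and tested with edgeR 4.0.16 in R 4.3.3 (TMM, default filter, quasi-likelihood F-test, Benjamini-Hochberg adjustment over 19145 genes at 0.05). Transcripts were fitted the same way. Each log2 fold change is the mutant value less the wild-type one. DESeq2 1.42.0, limma 3.58.1 (voom, and trend on log2(TPM + 1)) and further alternatives were refitted, and the fits were tested on simulated data. Shares were compared with exact permutation tests of 3 against 3. Depth was 26186236 to 26425111 counts per library, and errors at member level come from the spread between tumours.

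The members and lists were chosen with earlier results of these data known. Named were the 8 members, their transcripts with a mean of at least 50 counts or 5% of gene TPM, for each list the 2 smallest p or the called genes, and for each member the gene most alike. List genes beyond these were named after their values were seen.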

Additional observations from a re-analysis of the deposited data

How the results depend on the processing

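Over 17 alternatives the log2 fold changes of Ccnd1 (0.47 to 1.00), Ccnd3 (0.36 to 0.57), Cdk4 (0.11 to 0.25), Cdk6 (0.09 to 0.62) and Rbl1 (0.35 to 0.52) stayed above 0 and that of Ccnd2 (-0.57 to -0.20) below it. Rb1 turned to -0.02 on log2(TPM + 1), and leaving out 1 library at a time it ranged from -0.03 (without wild-type replicate 2 or mutant replicate 3) to 0.13. Rbl2 ranged from -0.13 to 0.003 over the 17, and from -0.12 to 0.003 (without wild-type replicate 1) when 1 library was left out. DESeq2 passed Ccnd1 (0.71), Ccnd3 (0.47), Rbl1 (0.44) and Rbl1-201 (0.46). Same-numbered tumours correlated at 0.227, 0.062 and -0.135 in their deviations from the group means. The 0.227 was the highest of any pair, but not every tumour correlated best with its own number. With 3 tumours a group these values cannot settle whether the numbers pair the tumours, and the main fit used no pairing. With the replicate number as a block, Ccnd3 passed (0.47, adjusted p = 0.0437), and 189 genes were called higher and 84 lower. With sex, inferred from Xist RNA, as a covariate, Ccnd1 was at 0.67 and Ccnd3 at 0.47 (edgeR adjusted p = 0.378 and 0.309).

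For all genes, DESeq2 called 524 higher and 405 lower, limma-voom 1 higher, and edgeR with no filter 3 higher. Leaving out 1 library gave 0 to 6 genes higher and 0 to 3 lower in edgeR, and 0 to 3 members called higher in DESeq2. For transcripts DESeq2 called 577 higher and 354 lower. The Cdk6 share of TPM difference ranged from -0.106 (without wild-type replicate 2) to 1.85 percentage points, that of the Rb1 share from -4.20 to 0.689 (without mutant replicate 2), and the MuvB median was -0.01 on log2(TPM + 1). The cause was not tested for any of these. With 3 tumours a group, the Cdk4 difference did not pass the adjusted edgeR test, although its groups did not overlap. No gene passed that test, whatever the size of its difference (smallest adjusted p = 0.0808).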
